A study of Saccharomyces cerevisiae with 34 samples.

Results

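Mediator is the large complex that carries signals from DNA-bound activators to RNA polymerase II at promoters. Its head and middle modules contact the polymerase, its tail module is the main landing site for activators, and its separable kinase module phosphorylates transcription factors and is best known in yeast for holding genes repressed. The transcripts described here are those of 10 Mediator subunit genes, chosen by name from a table of 6209 genes: the tail genes *GAL11* (Med15), *PGD1* (Med3), *MED2*, *SIN4* (Med16) and *NUT1* (Med5), the kinase module genes *SRB8* (Med12), *SSN2* (Med13), *SSN3* (the kinase Cdk8) and *SSN8* (its partner cyclin C), and *CSE2* (Med9). Cse2 is by its known position a subunit of the middle module and belongs to neither of the other modules, so it is described apart. It is of interest here because the study raised altered Cse2 function as a possibility in cells where the centromeric histone CENP-A Cse4 occupies promoters. The study's ground was that Cse2 ranked first among factors enriched at promoters of down-regulated genes with Cse4 peaks. That possibility concerns the protein, and the *CSE2* transcript levels given here do not test it.

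RNA was sequenced from 34 libraries of asynchronous budding yeast, 17 cultures each sampled in lactic acid medium (t0) and 2 h after galactose was added to 2% (t2). All cells were haploid *MATa* of the W303 background with *RAD5* restored, and per the strain table they shared the *bar1* and *bud4* alleles of that background. WT carried no further change. *psh1Δ* (psh1∆KAN) lacked Psh1, the ubiquitin ligase that marks Cse4 for destruction, and *htz1Δ* (htz1∆HYG) lacked the histone variant H2A.Z. *pGAL-3Flag-CSE4* carried an extra, tagged *CSE4* integrated at the *LEU2* locus, *psh1Δ pGAL-3Flag-CSE4* carried that construct with a deletion of *PSH1* (psh1∆KAN in the labels, while the strain table gives a HYG marker for the strain of batch 3), and *pGAL-H3* carried an extra histone H3 gene at the *TRP1* locus. The galactose promoter drives all of these constructs, so every comparison of t2 with t0 also contains the change of carbon source, which the WT and deletion cultures measured alone. There were 3 libraries per genotype and time, in batches 1 to 3, except *pGAL-3Flag-CSE4* with 2, in batches 2 and 3. Each of the 17 cultures had its own strain number, so replicates of a genotype were different strains.

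The libraries held 5258139 to 6836827 counts on genes. The labels fitted the targeted genes: *PSH1* had 0 to 3 counts in the 12 deleted libraries and 165 to 330 in the other 22, *HTZ1* had 0 to 2 counts in the 6 deleted libraries, and *CSE4* reached 10829.8 CPM (counts scaled to a library total of 1000000) or more after induction, against at most 53.8 CPM elsewhere. The *MATa* gene *STE2* lay between 192 and 720 CPM, while the *MATα* gene *STE3* stayed at or under 1.82 CPM. The pheromone genes separated less: the *MATa* genes *MFA2* and *MFA1* lay at 19.7 to 100 and 3.87 to 27.9 CPM. The *MATα* gene *MF(ALPHA)2* lay at 3.66 to 9.15 CPM, within the range of *MFA1* at most values. Chromosome I stood 0.77 to 0.98 higher on the log2 scale in the 4 *psh1Δ* and *psh1Δ pGAL-3Flag-CSE4* libraries of batch 1 than in the other libraries of their groups. No member lies on chromosome I, and the medians of the 6 chromosomes that carry members differed by -0.04 to 0.02 in those libraries.

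The members are spread over the genome. In build SacCer3, *CSE2* (YNR010W) is at chromosome XIV 643744 to 644193 on the plus strand, *SIN4* (YNL236W) at XIV 206930 to 209854 on the plus strand and *SSN8* (YNL025C) at XIV 584320 to 585291 on the minus strand. *SRB8* (YCR081W) is at chromosome III 254371 to 258654 on the plus strand, *MED2* (YDL005C) at IV 441014 to 442309 on the minus strand and *GAL11* (YOL051W) at XV 234940 to 238185 on the plus strand. *GAL11* begins 5105 bases after the end of *PSH1*, the gene deleted in *psh1Δ*. With read length of 50 bases, every 50-base window of 9 members occurred once in the genome, and 99.9% of those of *GAL11* did. Because the library kit does not mark strand, reads in stretches shared with another gene cannot be assigned. Such stretches were 14.2% of *PGD1*, 10.5% of *SIN4* and 8.54% of *SSN2*, each shared with 1 gene model of 5 to 10 counts per library at the median.

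The sequences before the start codon are shown for 4 members on which the results below turn: *CSE2* and *SRB8*, the lowest in *psh1Δ pGAL-3Flag-CSE4* at t2, *MED2*, the only member past the adjusted p-value limit in *htz1Δ*, and *GAL11*, the member with the widest single-library deviation. Each window runs 5′ to 3′ on the gene's strand, from 250 to 51 bases before the start codon, in the RefSeq genome R64, whose coordinates equal those of the count tables for 99.8% of matched genes. Capitals mark TATAAA (the core of a TATA box), AGGGG (the stress response element) and TTACCCG (the core bound by Reb1), searched on both strands, so that TTTATA and CCCCT are the first and second on the other strand.
CSE2: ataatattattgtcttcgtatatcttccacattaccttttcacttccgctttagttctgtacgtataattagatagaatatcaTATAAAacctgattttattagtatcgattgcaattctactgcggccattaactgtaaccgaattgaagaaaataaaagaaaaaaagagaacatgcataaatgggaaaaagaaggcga
SRB8: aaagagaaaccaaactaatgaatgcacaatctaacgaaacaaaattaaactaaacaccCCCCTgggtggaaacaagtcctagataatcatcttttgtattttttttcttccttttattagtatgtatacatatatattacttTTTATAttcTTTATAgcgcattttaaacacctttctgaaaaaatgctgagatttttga
MED2: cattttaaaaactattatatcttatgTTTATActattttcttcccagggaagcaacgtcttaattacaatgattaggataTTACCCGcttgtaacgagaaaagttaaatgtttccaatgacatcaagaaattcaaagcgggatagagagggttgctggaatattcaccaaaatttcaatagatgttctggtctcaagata
GAL11: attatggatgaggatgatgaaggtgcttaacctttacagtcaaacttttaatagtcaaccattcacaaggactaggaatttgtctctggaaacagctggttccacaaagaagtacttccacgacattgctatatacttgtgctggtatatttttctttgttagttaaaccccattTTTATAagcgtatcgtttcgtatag
These windows are XIV:643494-643693 for *CSE2*, III:254121-254320 for *SRB8*, IV:442360-442559 (minus strand) for *MED2* and XV:234690-234889 for *GAL11*. TATAAA was found in the windows of 7 of the 10 members, against 37.0% of 5700 protein-coding genes, and is in all 4 windows shown. AGGGG was found in *SRB8* alone (16.0% of all genes) and TTACCCG in *MED2* and *NUT1* (7.26% of all genes). The Gal4 site, CGG and CCG separated by 11 bases, was in none of the members' windows and in 1.07% of all genes' windows. A letter match is a description of these windows and not a bound site.

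The tail genes *GAL11*, *MED2* and *PGD1* were the most abundant members and the large kinase module genes *SSN2* and *SRB8* the least. Levels below are in CPM after TMM scaling, which adjusts for a few very abundant transcripts, and are compared between genes per kilobase of coding sequence. Over 34 libraries the median level was 64.7 CPM per kilobase for *GAL11*, 54.7 for *MED2* and 40.3 for *PGD1*, next to a median over all genes of 40.2. The kinase gene *SSN3* stood at 33.5 CPM per kilobase, followed by *CSE2* at 20.9 and the cyclin gene *SSN8* at 18.7. The tail genes *SIN4* (16.4 CPM per kilobase) and *NUT1* (15.6) lay below these, and *SSN2* (9.76) and *SRB8* (5.67) below all other members.

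**Figure D1:**
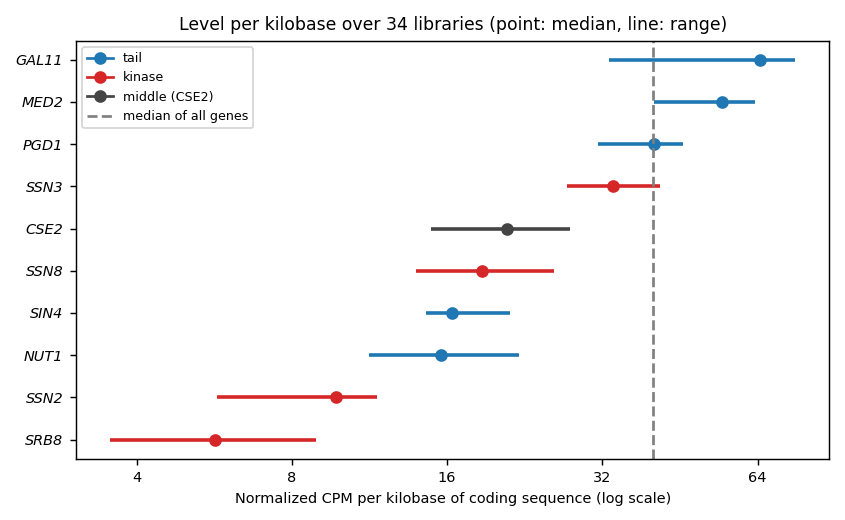
Level of each subunit gene in TMM-normalized CPM per kilobase of coding sequence, on a log axis; points are medians and lines run from the lowest to the highest of 34 libraries. *GAL11* is highest with a median of 64.7 and *SRB8* lowest with 5.67, and the dashed line marks the median of all genes at 40.2.

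This order was steady at its lower end and loose in its middle. *SSN2* was above *SRB8* and *NUT1* above *SSN2* in 34 of 34 libraries, and *SSN3* above *CSE2* in 34. *SIN4* exceeded *NUT1* in 25 of 34 libraries and *CSE2* exceeded *SSN8* in 26, so these neighbours in the order overlapped within the spread between libraries. The other 15 Mediator subunits ran from a median of 19.6 CPM per kilobase (*SRB5*) to 105 (*SRB2*, a head subunit), and none of them was as low as *SRB8* or *SSN2*. The scaling of counts per gene length assumes even coverage along the transcript, and a library with a length trend is described below.

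Most members varied less than the median gene of like level, with *SRB8* and *NUT1* as exceptions. *PGD1* had a coefficient of variation of 8.92% over the 34 libraries, *MED2* 9.18%, *SSN3* 9.85% and *SIN4* 10.6%. Among genes within 2-fold of the same level, 92.7% varied more than *PGD1* and 87.7% more than *MED2*. *SRB8* varied the most, at 19.9%, from 15.2 to 38.1 CPM, and 29.8% of genes of like level varied more. *NUT1* had 15.8%, and 40.6% of genes of like level varied more. For *CSE2* the spread was 13.2%, from 6.70 to 12.5 CPM, against a median of 21.6% for genes of its level, of which 96.9% varied more.

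**Figure D2:**
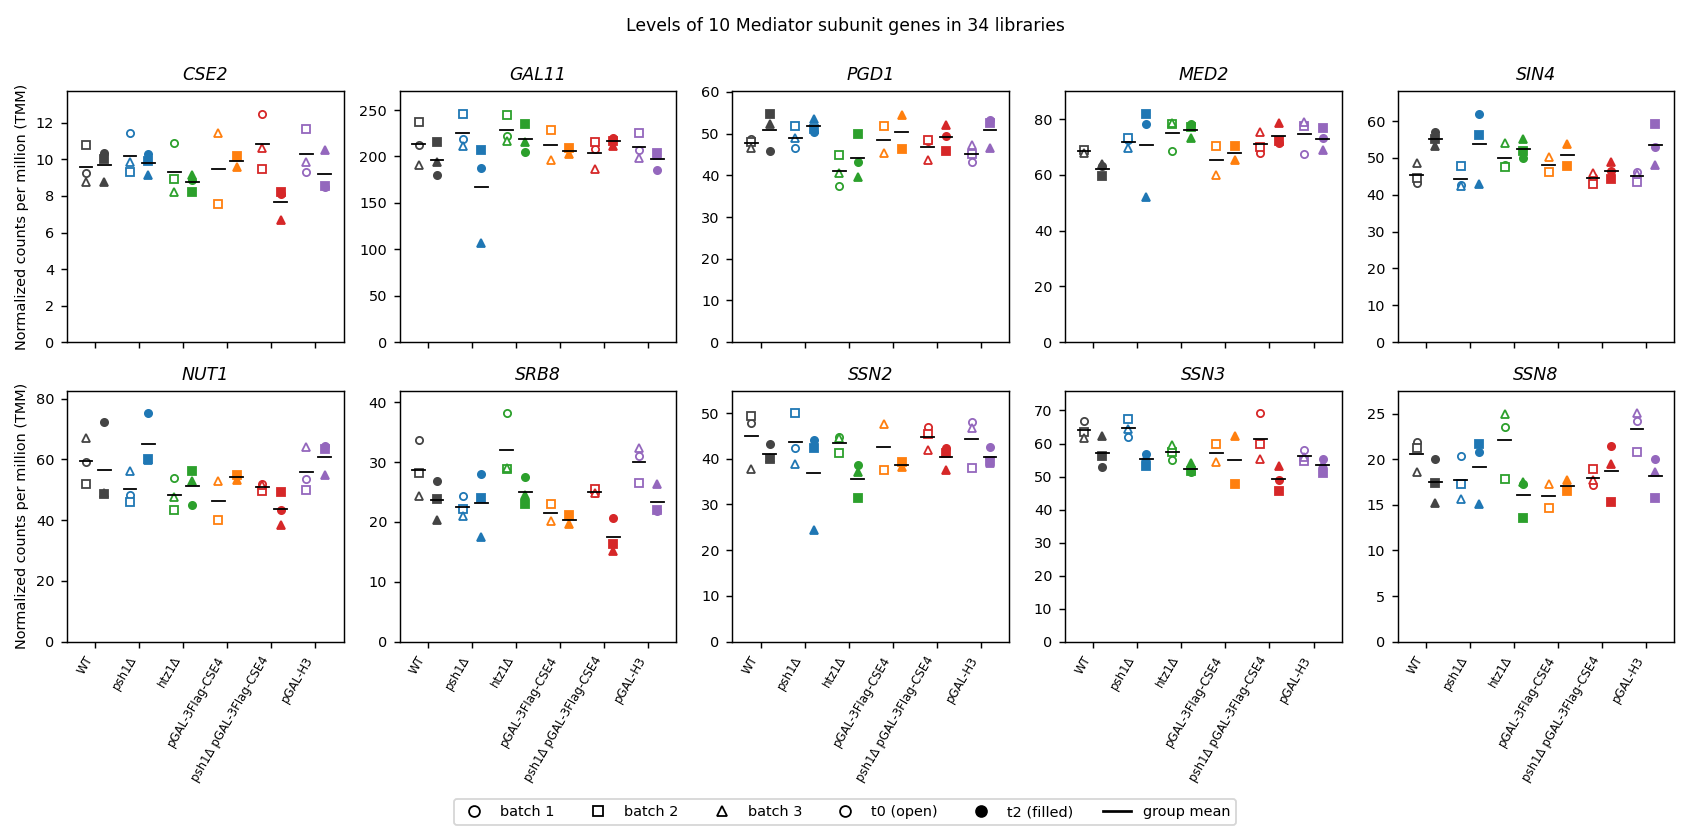
TMM-normalized CPM of each gene in every library, by genotype; open symbols are t0, filled symbols t2, shapes are batches and bars are group means, with all vertical axes starting at 0. Most groups overlap; the single *psh1Δ* t2 library of batch 3 lies lowest of all libraries for *GAL11* (107 CPM) and *MED2* (52.2 CPM), and the *psh1Δ pGAL-3Flag-CSE4* t2 library of batch 3 lowest for *CSE2* (6.70 CPM) and *SRB8* (15.2 CPM).

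None of these 10 genes was called in any of the 16 comparisons fitted here. A gene was called when edgeR's quasi-likelihood test gave a Benjamini-Hochberg adjusted p under 0.05 over all 6209 genes and the difference was at least 1.5-fold, the limits the study's methods give. Over 16 comparisons and 10 genes, 0 of 160 values were called, and 15 had an unadjusted p under 0.05 (9.38%, against 17.4% over all genes). An adjusted p under 0.05 was reached by 2 values that were short of the fold minimum. These were *SRB8* in *psh1Δ pGAL-3Flag-CSE4* and *MED2* in *htz1Δ* against WT at t2. DESeq2 called 0 with 8 at an unadjusted p under 0.05. The largest difference was 0.58 on the log2 scale. The 95% interval lay within 2-fold in either direction for 158 of the 160 values, against 82.5% of the values of all genes. The 2 exceptions were both *CSE2*, the member with the fewest counts (33 to 82 per library). Same-group libraries come from separate cultures, each of its own strain number and batch. The p-values therefore measure a within-group spread in which strain, batch and culture cannot be told apart. The fits leave out the pairing of t0 with t2, so p-values do not measure the spread of changes within cultures. Bulk libraries cannot tell fewer expressing cells from less RNA per cell.

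In galactose alone, the WT cultures gave 0 of 10 members called, where 3% of all genes were. The kinase genes all had lower estimates at t2 and *SIN4* a higher one. *SIN4*, a tail subunit also known for repressor roles, measured 43.3, 44.5 and 48.7 CPM in WT batches 1 to 3 at t0 and 57.1, 55.3 and 53.1 CPM at t2. All t2 libraries exceeded all t0 libraries, which 13.7% of genes did. The log2 difference was 0.27 (SE 0.09), with an adjusted p of 0.103 in edgeR's quasi-likelihood test.

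*SIN4* was also higher at t2 than at t0 in each of the 17 cultures, by 0.01 to 0.53 on the log2 scale of TMM-scaled CPM plus 0.5, as were 5.99% of all genes. In *pGAL-H3* it measured 46.2, 43.4 and 45.6 CPM at t0 and 53.1, 59.1 and 48.1 CPM at t2, a log2 difference of 0.25 (SE 0.10, adjusted p = 0.0923, edgeR). The sign count rests on the scaling: with library totals in place of TMM factors, *SIN4* was higher in 11 of 17 cultures and lower in all 3 *psh1Δ pGAL-3Flag-CSE4* cultures, by 0.11 to 0.26. In those cultures library totals shifted the median of all genes by -0.24 relative to TMM scaling.

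**Figure D3:**
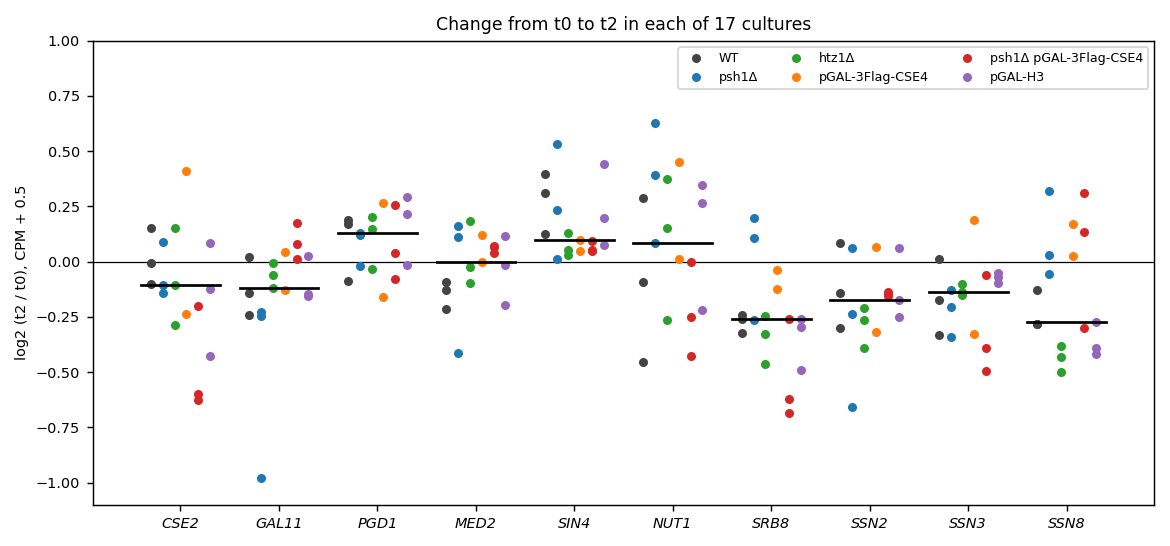
Change from t0 to t2 of each gene in each of 17 cultures, as log2 of TMM-normalized CPM plus 0.5; colours are genotypes and bars are medians over cultures. All 17 points of *SIN4* are above 0, 15 of 17 points are below 0 for *SRB8* and *SSN3*, and *GAL11* has a lone point at -0.98.

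None of the kinase module genes was called between t0 and t2. *SRB8*, whose product Med12 contacts the kinase and its cyclin, and *SSN3*, the kinase itself, were each lower at t2 in 15 of 17 cultures, as were 16.3% of all genes in 15 or more. *SSN2* was lower in 13 cultures, with 27.8% of all genes lower in as many, and *SSN8* in 11, with 39.6%. The *SSN8* estimate was above 0 in *psh1Δ*, *psh1Δ pGAL-3Flag-CSE4* and *pGAL-3Flag-CSE4*, and that of *SRB8* above 0 in *psh1Δ*. The tail genes had no shared sign, with *GAL11* lower in 11 cultures, *MED2* in 9, *NUT1* in 7 and *PGD1* in 6. With library totals, which move the median of all genes down in 5 of 6 genotypes, the counts were 15 for *SRB8* (23.7% of genes lower in as many), 16 for *SSN3* (16.6%), and 13 for *SSN2* and *SSN8* (36.9%). *GAL11* then became lower in 17 of 17, as were 9.50% of genes.

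*SRB8* in WT measured 33.7, 28.2 and 24.3 CPM at t0 and 26.9, 23.8 and 20.2 CPM at t2. The groups overlapped, although each culture fell below its own t0 value. In *pGAL-H3* the t0 values were 31.0, 26.5 and 32.4 CPM and the t2 values 21.9, 22.0 and 26.3 CPM, with no overlap, a log2 difference of -0.35 (SE 0.12, adjusted p = 0.0655, edgeR). There 0 of 10 members and 10.8% of all genes were called, and *SRB8* and *SSN8* were lower without overlap, as were 21.2% of genes.

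In *htz1Δ* cultures all 4 kinase module genes were lower at t2 than at t0 in every batch and without overlap, a pattern shown by 29.7% of genes for every batch and 21.7% for no overlap. *SSN8*, the cyclin, measured 23.5, 17.8 and 25.0 CPM at t0 and 17.3, 13.5 and 17.5 CPM at t2, a log2 difference of -0.45 (SE 0.17). *SRB8* measured 38.1, 28.9 and 29.1 CPM at t0 and 27.5, 23.0 and 24.4 CPM at t2, a log2 difference of -0.35 (SE 0.14). *SSN2*, the subunit that links the module to the core of Mediator, went from 41.2 to 44.7 CPM at t0 to 31.4 to 38.6 CPM at t2, a log2 difference of -0.28 (SE 0.11).

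The adjusted p-values of *SSN8*, *SSN2* and *SRB8* in *htz1Δ* were 0.0905, 0.0967 and 0.103 (edgeR), so 0 of 10 members were called in a comparison where 10.8% of all genes were. The median log2 difference of the kinase genes was -0.31 and that of all genes -0.01. Set against the WT change, 0 of 10 members and 0% of all genes were called by edgeR, and 0 members and 1 gene by DESeq2, while 0 members and 4.45% of all genes had an unadjusted p under 0.05. A difference between *htz1Δ* and WT in the response of these genes was therefore not shown. With library totals the changes of *SSN2* and *SSN8* in *htz1Δ* were -0.39 and -0.56, with adjusted p-values of 0.0333 and 0.0422 (edgeR). Both were short of the fold minimum, and the median of all genes moved by -0.11 under that scaling.

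The comparison the study turned on is the *psh1Δ pGAL-3Flag-CSE4* strain, in which excess Cse4 is made without Psh1 to mark it for destruction. From t0 to t2, 6.28% of all genes were called there and 0 of 10 members, with 3 members at an unadjusted p under 0.05 (30.1% of all genes), all of them lower: *SRB8*, *CSE2* and *SSN3*. *CSE2*, *NUT1*, *SRB8* and *SSN3* were lower at t2 without overlap, 4 of 10 members against 18.1% of all genes. For *NUT1* the groups nearly touched, with a lowest t0 value of 49.45 CPM and a highest t2 value of 49.37 CPM. The tail genes *GAL11*, *PGD1*, *MED2* and *SIN4* had estimates of 0.06 to 0.09 on the log2 scale, which turned to -0.15 to -0.18 with library totals.

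*SRB8* in this strain measured 24.8, 25.4 and 24.8 CPM in batches 1 to 3 at t0 and 20.6, 16.4 and 15.2 CPM at t2. The t0 libraries were nearly alike and all t2 libraries lay below them. The log2 difference was -0.52 (SE 0.14, 95% interval -0.84 to -0.21), and 7.46% of genes had a lower estimate. Less the WT change, in which *SRB8* had an estimate of -0.29, it was -0.26 (SE 0.22, adjusted p = 0.602, edgeR), and less the *pGAL-3Flag-CSE4* change -0.44 (SE 0.20, adjusted p = 0.429, edgeR). The adjusted p of the change itself was 0.0491 in edgeR's quasi-likelihood test, under the limit, but the size was short of the 1.5-fold minimum, so the gene was not called (11.2% of all genes pass without the minimum).

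*CSE2* measured 12.5, 9.50 and 10.6 CPM at t0 and 8.09, 8.19 and 6.70 CPM at t2 in *psh1Δ pGAL-3Flag-CSE4*, from 53 to 77 counts and 33 to 40 counts per library. The means were 10.9 ± 1.5 CPM and 7.66 ± 0.83 CPM (SD, n = 3). All 3 t2 libraries were below all 3 t0 libraries. The log2 difference was -0.51 (SE 0.18, 95% interval -0.91 to -0.10, adjusted p = 0.10, edgeR).

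*CSE2* at t2 in the other genotypes was higher on average: 9.70 ± 0.85 CPM in WT, 9.80 ± 0.60 in *psh1Δ*, 8.75 ± 0.47 in *htz1Δ* and 9.18 ± 1.14 in *pGAL-H3* (SD, n = 3). In *pGAL-3Flag-CSE4*, which makes the same histone but keeps Psh1, it measured 10.2 and 9.61 CPM. *CSE2* was the 1 member whose *psh1Δ pGAL-3Flag-CSE4* t2 libraries all lay below the other 14 t2 libraries, as 6.33% of genes did. The margin was narrow, since the *htz1Δ* t2 library of batch 2 had 8.24 CPM, and among t0 libraries the *pGAL-3Flag-CSE4* culture of batch 2 reached down to 7.56 CPM.

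Less the WT change, the *CSE2* change in *psh1Δ pGAL-3Flag-CSE4* was -0.54 (SE 0.23, 95% interval -1.04 to -0.05, adjusted p = 0.256, edgeR), where 0 of 10 members and 0.338% of all genes were called. Less the change in *pGAL-3Flag-CSE4*, it was -0.58 (SE 0.30, 95% interval -1.25 to 0.09, adjusted p = 0.484, edgeR), where 0 of 10 members and 0% of all genes were called; DESeq2 called 0 members there and 35 genes. Both intervals include values beyond 2-fold. The comparisons with WT share the WT libraries.

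Scaling bears on *CSE2* and *SRB8* in this strain. With library totals in place of TMM factors the log2 differences became -0.75 and -0.76 and both genes were called, with adjusted p-values of 0.0218 and 0.0072 (edgeR), while the median of all genes moved by -0.24 in the same direction. A change of scaling shifts all genes of a comparison nearly alike. Relative to that median the differences were therefore bound to stay close to those under TMM scaling. *SSN3* (-0.56), *NUT1* (-0.46) and *SSN2* (-0.39) also had adjusted p-values under the limit with library totals, 0.0144, 0.0227 and 0.0278 (edgeR). Their sizes were short of the fold minimum.

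*SSN3* measured 69.1, 59.8 and 55.4 CPM at t0 and 48.9, 45.6 and 53.2 CPM at t2 in *psh1Δ pGAL-3Flag-CSE4*, a log2 difference of -0.32 (SE 0.11, adjusted p = 0.102, edgeR). *NUT1* measured 51.7, 49.4 and 51.7 CPM at t0 and 43.5, 49.4 and 38.4 CPM at t2 there. In *pGAL-3Flag-CSE4* it went the other way, from 40.0 and 52.8 CPM to 54.9 and 53.2 CPM. The difference of the 2 changes of *NUT1* was -0.45 (SE 0.19, adjusted p = 0.389, edgeR).

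**Figure D4:**
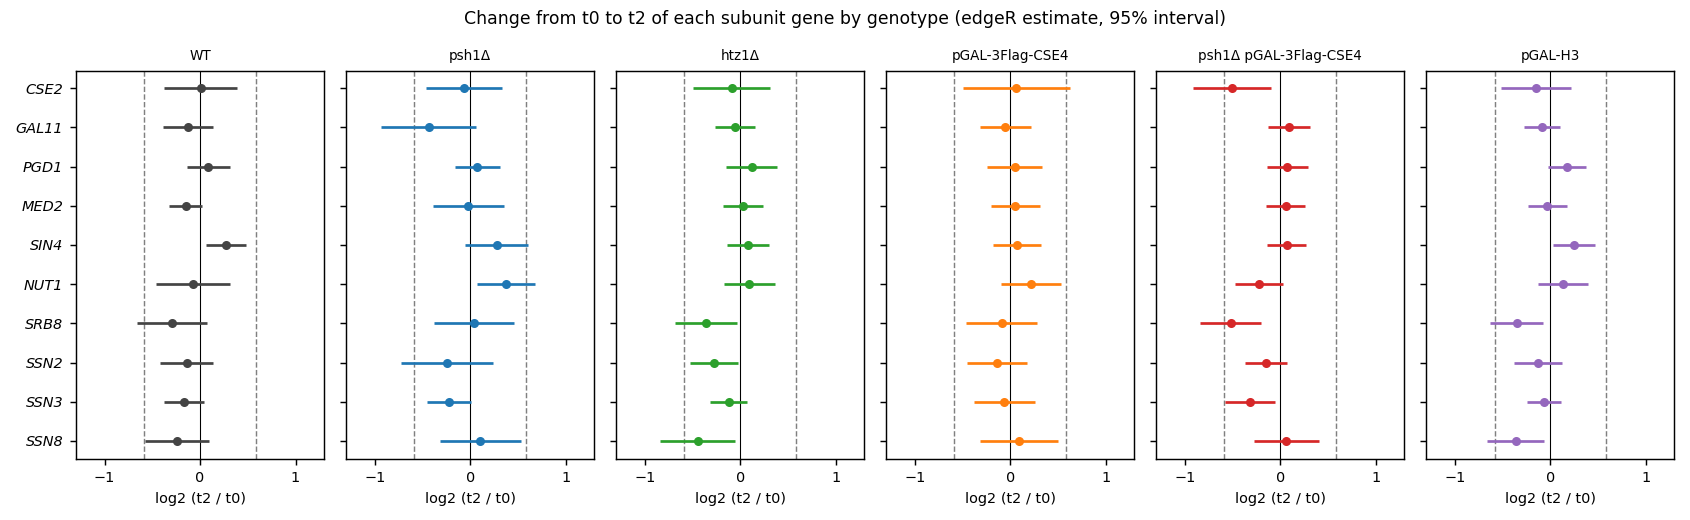
Log2 difference between t2 and t0 of each gene in each genotype, as edgeR estimates with 95% intervals; dashed lines mark the 1.5-fold minimum. All estimates lie inside the dashed lines, the most negative being *SRB8* at -0.52 and *CSE2* at -0.51 in *psh1Δ pGAL-3Flag-CSE4*.

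With Psh1 present, none of the members passed the test after Cse4 was induced. In *pGAL-3Flag-CSE4* 0 of 10 members were called, against 4.86% of all genes, and 0 had an unadjusted p under 0.05, against 26.5% of all genes. DESeq2 called 0 members as well. The median log2 difference of the members was 0.05. Less the WT change, 0 of 10 members were called in *pGAL-3Flag-CSE4* and 0 of 10 in *pGAL-H3*, with 0.0161% of all genes called in each.

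Loss of Psh1 alone gave no called member at t0 or at t2, against 0.0161% of all genes at either time. *SRB8* was lower in *psh1Δ* at t0, with 24.3, 22.2 and 21.0 CPM against 33.7, 28.2 and 24.3 CPM in WT. The groups did not overlap by a narrow margin, as for 4.48% of genes, and the log2 difference was -0.35 (SE 0.15, adjusted p = 1.000, edgeR). *MED2* was higher without overlap at t0 (3.7% of genes), by 0.06 on the log2 scale. From t0 to t2 the *psh1Δ* cultures gave 0 of 10 members called (0.805% of all genes) and *NUT1* the largest rise in the estimate, from 48.4, 45.8 and 56.3 CPM to 75.1, 60.2 and 59.7 CPM without overlap, as for 11.9% of genes (log2 difference 0.37, SE 0.13, adjusted p = 0.170, edgeR). Less the WT change 0 of 10 members and 0% of all genes were called, 0 members and 1.27% of all genes had an unadjusted p under 0.05, and no gene was called by DESeq2.

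*GAL11* in *psh1Δ* shows how far 1 library can carry a value. It measured 219, 246 and 212 CPM at t0 and 187, 207 and 107 CPM at t2, without overlap (13.3% of genes were lower in this way). The last of these is the *psh1Δ* t2 library of batch 3, the lowest of all 34, where the other 33 lay at 179.5 CPM or more. The log2 difference from t0 was -0.43 (SE 0.22, 95% interval -0.93 to 0.06), and it was -0.20 (SE 0.12) without that library. Against WT at t2 the difference was -0.22, and 0.02 without it.

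That library had a length trend. Relative to the other *psh1Δ* t2 libraries, its 771 genes of 2500 bases or more had a median deviation of -0.20 on the log2 scale and its 1203 genes under 700 bases one of 0.19. The correlation of deviation with log2 length was -0.31, against -0.17 to 0.26 in the other 33 libraries. *GAL11* deviated by -0.87, *SSN2* by -0.81 and *MED2* by -0.61, and 29 of the 771 long genes were as low as *GAL11* or lower. Not every member followed length: *NUT1*, the longest tail gene with 3399 bases, deviated by -0.17, and the shorter *SSN8*, with 972 bases, by -0.48. The part of the length trend in the values of single members was not tested.

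**Figure D5:**
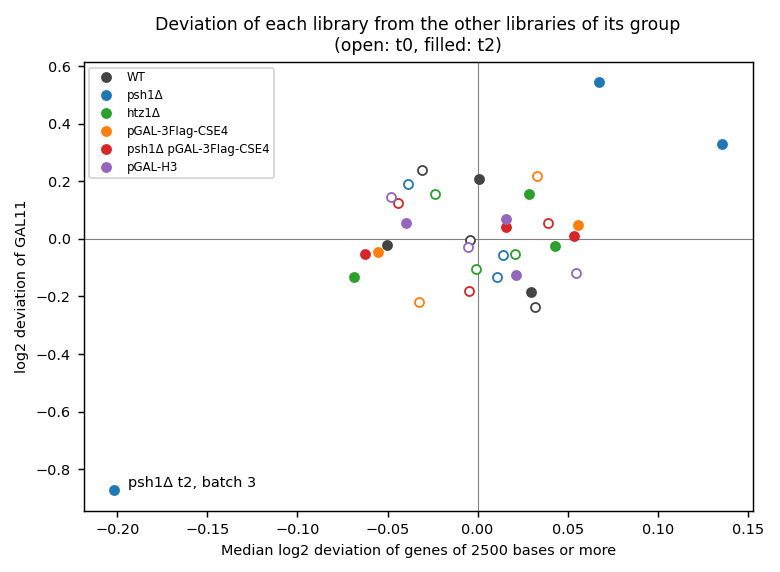
Deviation of *GAL11* from the other libraries of its group (vertical, log2) against the median deviation of genes of 2500 bases or more (horizontal, log2), for 34 libraries; open symbols are t0 and filled symbols t2. The *psh1Δ* t2 library of batch 3 sits alone at -0.20 and -0.87, and since each group's libraries are set against each other, the other *psh1Δ* t2 libraries are shifted upward.

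*MED2* in *psh1Δ* at t2 turned on the same library. It measured 78.3, 81.9 and 52.2 CPM, against 63.1, 59.5 and 63.8 CPM in WT. The log2 difference was 0.20 (SE 0.17), and 0.38 (SE 0.10) without batch 3 of *psh1Δ*, with an adjusted p of 0.825 (edgeR).

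In *htz1Δ* against WT the member nearest to a call was *MED2*, which encodes a tail subunit that binds with Pgd1 and Gal11 as the activator-facing triad. At t2 it measured 78.3, 77.1 and 73.3 CPM in *htz1Δ* and 63.1, 59.5 and 63.8 CPM in WT. The groups did not overlap, as for 16.6% of genes in this direction. The log2 difference was 0.29 (SE 0.09, adjusted p = 0.0438, edgeR), under the adjusted limit but short of the fold minimum, so 0 of 10 members were called where 6.54% of all genes were (15.8% without the minimum). With library totals the *MED2* difference was 0.16 with an adjusted p of 0.240 (edgeR). WT itself had gone down from 67.9 to 69.1 CPM at t0 to 59.5 to 63.8 CPM at t2, without overlap (14.8% of genes).

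At t0, *htz1Δ* against WT gave 0 of 10 members called, against 2.98% of all genes. *PGD1* measured 37.5, 44.9 and 40.4 CPM in *htz1Δ* and 48.6, 48.0 and 46.5 CPM in WT, without overlap (15.4% of genes), a log2 difference of -0.22 (SE 0.10, adjusted p = 0.234, edgeR). The estimate of *PGD1* at t0 and that of its triad partner *MED2* at t2 were of opposite sign, but at different times. Neither gene was called.

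Across libraries the kinase module genes moved together loosely, while the tail genes as a set did not move together. Over 34 libraries, which share batches and media, Pearson's r of log2 levels was 0.10 to 0.63 for the 6 pairs of kinase genes (median 0.39) and -0.45 to 0.57 for the 10 pairs of tail genes (median 0.01). Over all pairs of genes at 10 CPM or more the median was 0.00. The closest pair was *SRB8* and *SSN8* at 0.63, and the closest pair of tail genes was *GAL11* and *MED2* at 0.57. Without the *psh1Δ* t2 library of batch 3 these values were 0.60 and 0.21, and the tail pairs ran from -0.62 to 0.41. *PGD1* and *SRB8* had the most negative value over all 34 libraries, -0.55.

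The genes whose levels were most like those of *CSE2* over the 34 libraries, among 5244 compared, were *FLD1* (r = 0.68), *SPC1* (0.68), *AVT2* (0.68), *APC5* (0.64) and *PRP11* (0.64). None of them is a Mediator subunit.

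Among the other 15 Mediator subunits, 4 of 240 values were called by edgeR and 4 by DESeq2, where over the same 16 comparisons 2.91% of the values of all genes were called by edgeR. *SRB4*, the essential head subunit Med17, went from 41.5, 38.7 and 47.2 CPM at t0 to 27.1, 29.4 and 24.8 CPM at t2 in *psh1Δ pGAL-3Flag-CSE4*. The groups did not overlap, as for 18.1% of all genes in this direction. *SRB4* fell by 0.65 on the log2 scale (SE 0.12, adjusted p = 0.0175, edgeR), next to the values of -0.52 for *SRB8* and -0.51 for *CSE2* in the same cultures. In *htz1Δ* the head gene *ROX3* rose by 0.62 (adjusted p = 0.0070, edgeR) and the middle gene *SOH1* by 0.63 (adjusted p = 0.0163, edgeR) from t0 to t2. Their WT means rose too, from 36.5 to 44.6 CPM for *ROX3* and from 18.4 to 23.0 CPM for *SOH1*. Less the WT change, 0 of the 15 subunits were called in *htz1Δ* (0% of all genes). In *psh1Δ pGAL-3Flag-CSE4* less the WT change, 0 of 15 were called as well (0.338% of all genes). *MED7*, a middle subunit, measured 12.2, 12.7 and 13.0 CPM in *htz1Δ* at t0 and 20.7, 20.6 and 21.3 CPM in WT, a log2 difference of -0.72 (SE 0.12, adjusted p = 0.0221, edgeR).

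The activators known to bind the tail (*GAL4*, *GCN4*, *PDR1*, *PDR3*, *OAF1* and *HSF1*) gave 0 of 96 values called by edgeR, 13 with an unadjusted p under 0.05 (17.4% over all values of all genes), and 0 called by DESeq2. Known targets of the Ssn3 kinase (*STE12*, *MSN2*, *SIP4*, *GCN4* and *GAL4*) gave 3 of 80 called by edgeR (2.91% over all genes) and 2 by DESeq2. *SIP4*, an activator of gluconeogenic genes, went from 34.4 and 18.1 CPM to 8.84 and 9.10 CPM in *pGAL-3Flag-CSE4* and from 35.5, 33.6 and 12.9 CPM to 13.4, 14.5 and 9.17 CPM in *htz1Δ*. It fell by 1.56 and by 1.14 on the log2 scale (adjusted p = 0.0237 and 0.0412, edgeR), and DESeq2's filter on low counts left the first without an adjusted p. In the other genotypes, where it was not called, its estimate was -1.49 in WT, -1.42 in *pGAL-H3*, -1.02 in *psh1Δ* and -0.53 in *psh1Δ pGAL-3Flag-CSE4*. *STE12*, the mating-pathway factor, rose by 0.60 in *pGAL-H3*, from 66.3, 49.8 and 60.3 CPM to 89.0, 86.7 and 91.8 CPM (adjusted p = 0.0062, edgeR). Less the WT change, 0 of these 5 kinase targets were called in *pGAL-H3*, against 0.0161% of all genes.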

How the data were processed

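Polyadenylated RNA of 34 libraries was sequenced as single 50-base reads with an unstranded kit. Per the submitters' processing notes and the methods, reads of low quality were dropped by the authors, the alignment to SacCer3 used TopHat 2.1.0, and HTSeq 0.6.1 assigned reads to genes. The methods state that genes with low counts were removed, the lowest gene in the tables holds 59 counts over 34 libraries, and the authors' edgeR was 3.12.0. Raw counts were read from the deposited tables and analysed unchanged. All 64 count columns matched a sample, and the 30 that repeat a library were identical to its first copy. The authors' normalized CPM, and their fold changes, p-values and calls, were not used.

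Counts were scaled by TMM and fitted with edgeR 4.0.16 in R 4.3.3 (glmQLFit and glmQLFTest) on the libraries of each comparison, with no batch term and no further filter, and p-values were adjusted over 6209 genes. Differences with an adjusted p under 0.05 and a size of at least 1.5-fold were called. Scripts were tested on simulated data. Members and lists were chosen with earlier results of these data known. Genes named are the 10 members, other listed genes where called, and the 5 most like *CSE2*. The 17 cultures carry strain numbers that pair t0 with t2. Deviations from the group means correlated by -0.03 to 0.54 (median 0.21) within cultures. Over all 177 pairs of libraries of 1 batch, these pairs included, the range was -0.45 to 0.83 (median 0.16). The correlations therefore hardly separate a shared culture from a shared batch. Libraries of 1 group differed by at least 4.73 times counting noise (chi-square per degree of freedom), so none was a copy. Alternatives were DESeq2 1.42.0, its size factors, a filter of 10 counts in 3 libraries, no fold minimum, the likelihood ratio test, batch or culture as a block, all 34 libraries, single replicates left out, a pseudocount of 2 CPM in place of 0.5, and, chosen after seeing the data, library totals and the omission of the *psh1Δ* t2 library of batch 3.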

Additional observations from a re-analysis of the deposited data

Results flagged for a closer look

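Of the 15 pairs of genotypes, 6 have a test of the difference between their changes from t0 to t2, and 0 of 10 members were called in any of them. In the other 9 pairs a member stood out where every culture of 1 genotype moved opposite to every culture of the other, and none of these differences was tested. *GAL11* was lower at t2 in every *psh1Δ* culture and higher in every *psh1Δ pGAL-3Flag-CSE4* culture, the means of the log2 changes differing by -0.57. The *psh1Δ* culture of batch 3, whose t2 library stands apart, was at -0.98, and those of batches 1 and 2 were at -0.23 and -0.25. *NUT1* went the other way in the same pair, with means differing by 0.59, and the *psh1Δ pGAL-3Flag-CSE4* culture of batch 2 was at -0.00. Among all genes 5.62% showed opposite signs in that pair. *GAL11* also differed in sign between *htz1Δ* and *psh1Δ pGAL-3Flag-CSE4*, by -0.15 (5.85% of all genes). With library totals *GAL11* was lower at t2 in all 17 cultures, so neither of its sign differences remains under that scaling. *SSN8* was lower in every *htz1Δ* culture and higher in both *pGAL-3Flag-CSE4* cultures, the means differing by -0.54 (3.75% of all genes). It was also lower in every *pGAL-H3* culture, 0.46 being the mean of *pGAL-3Flag-CSE4* less that of *pGAL-H3* (3.29% of all genes). The *pGAL-3Flag-CSE4* values rest on 2 cultures.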

How the results depend on the processing

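The number of members called stayed at 0 in 179 of 182 alternative counts over the 16 comparisons. Over all 6209 genes the number called also moved with the alternative. It ran from 22 to 867 in *psh1Δ pGAL-3Flag-CSE4* (390 in the main fit) and from 14 to 401 in WT (186 in the main fit). The exceptions were 1 member without the fold minimum in *psh1Δ pGAL-3Flag-CSE4* (*SRB8*) and 1 in *htz1Δ* against WT at t2 (*MED2*), and 2 members with library totals in *psh1Δ pGAL-3Flag-CSE4* (*CSE2* and *SRB8*). With batch or culture as a replicate block 0 members were called, 22 of 160 values having an unadjusted p under 0.05 with the batch block. With that block 323 of 6209 genes were called in *psh1Δ pGAL-3Flag-CSE4*, and 1842 had an unadjusted p under 0.05. With single replicates left out the counts ran from 0 to 0. Few genes of any kind were called in some of these fits: without replicate 1, 22 in *psh1Δ pGAL-3Flag-CSE4* and 14 in WT. Leaving out a batch was not run for the *pGAL-3Flag-CSE4* change, which has 2 batches. The 15 values with an unadjusted p under 0.05 kept their sign in all 168 alternative values. They were picked by that p and the alternatives refit the same counts, so the kept sign is no independent support. The adjusted p of *SRB8* in *psh1Δ pGAL-3Flag-CSE4* ran from 0.0072 to 0.230 and that of *CSE2* from 0.0218 to 0.355. CPM from library totals moved 21 of 120 group means by more than 1 SD, and the pseudocount moved 0 of 60 mean changes. *CSE2* had the fewest counts of the members, 33 to 82 per library. With library totals the *MED2* difference in *htz1Δ* against WT at t2 was 0.16 (adjusted p = 0.240).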
